A study of Mus musculus with 13 samples.

Results

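The 7 globin genes Hba-x, Hba-a1, Hba-a2, Hbb-y, Hbb-bh1, Hbb-bs and Hbb-bt were followed through mouse heart development in 10 single-cell RNA matrices that list 27998 genes. They were chosen by symbol, and all 7 were in every matrix. Their unique molecular identifiers (UMIs, each standing for 1 captured transcript) were summed over 2 populations of cell barcodes. Globin-high barcodes had at least 1000 UMIs, of which at least 20% came from the 7 genes, and there were 4048 of them. The other 76917 barcodes had at least 2000 UMIs and a lower globin share. All animals were wild-type C57Bl/6J mice. The E8.5 and E10.5 material was the embryo without head and limbs, and the heart was taken from E12.5 on and at P3. E10.5, E12.5, E14.5 and E16.5 had 2 libraries each. E8.5 is represented by its replicate 2 (replicate 1 was not analysed here), and P3 by 1 matrix that joins 2 sample records, so these stages give values without a test. The labels do not say whether replicates came from separate litters, so p-values measure only the spread between these libraries. Stage and tissue cannot be told apart between E10.5 and E12.5.

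Hemoglobin is a tetramer of 2 alpha-type and 2 beta-type globin chains, each holding a heme group. In the mouse the embryonic chains are Hba-x (zeta) on the alpha side and Hbb-y (epsilon-y) and Hbb-bh1 (beta-h1) on the beta side. The adult chains are Hba-a1 and Hba-a2 on the alpha side and Hbb-bs and Hbb-bt on the beta side. Primitive red cells from the yolk sac circulate first and carry the embryonic chains. Definitive red cells, made from the fetal liver onward, carry the adult chains.

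The alpha-type genes lie together on chromosome 11 and the beta-type genes on chromosome 7 of mm10, within 20899 and 40693 bases. In GENCODE M21, Hba-x is at chr11:32276400-32278116, Hba-a1 at chr11:32283511-32284465 and Hba-a2 at chr11:32296489-32297298, all on the plus strand. Hbb-y is at chr7:103851749-103853216, Hbb-bh1 at chr7:103841637-103843164, Hbb-bs at chr7:103826534-103828096 and Hbb-bt at chr7:103812524-103813996, all on the minus strand. In each cluster the order along the strand runs from the embryonic to the adult genes. RefSeq promoters (GRCm38.p6) were found for 6 of the 7 members, Hbb-bh1 being the exception. Each pair of promoters was compared without gaps, at its best shift of at most 10 bases. Those of Hba-a1 and Hba-a2 were 100% identical over 247 bases, those of Hbb-bs and Hbb-bt 51% over 249 bases, and every other pair between 28.9% and 34.4%. Bases gained or lost within a promoter lower such values, so they can lie below those of a gapped alignment. The stretches upstream of the start are printed for 1 embryonic beta-type, 1 adult beta-type and 1 adult alpha-type gene, since the switch runs between these kinds. Hbb-y is chr7:103853217-103853457 on the minus strand, Hbb-bt is chr7:103813997-103814173 on the minus strand and Hba-a2 is chr11:32296242-32296488 on the plus strand. Capitals mark letters that erythroid promoters often share. They are CACCC (the box of Klf1-type factors), the CCAAT box and GATAA (the core of GATA factor sites) on either strand, and TATAA or, in its place, CATAAA on the gene's strand in the last 50 bases. Each stretch stops where the GENCODE gene begins, which for Hbb-bt lies upstream of the RefSeq start and inside its second CCAAT match, so that its last CCAAT match and its TATA-type match are not shown.
Hbb-y: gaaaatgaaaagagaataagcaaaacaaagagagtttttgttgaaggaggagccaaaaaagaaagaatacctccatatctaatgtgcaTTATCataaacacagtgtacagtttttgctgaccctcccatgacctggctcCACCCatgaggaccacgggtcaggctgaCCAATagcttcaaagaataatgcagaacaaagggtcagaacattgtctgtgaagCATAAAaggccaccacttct
Hbb-bt: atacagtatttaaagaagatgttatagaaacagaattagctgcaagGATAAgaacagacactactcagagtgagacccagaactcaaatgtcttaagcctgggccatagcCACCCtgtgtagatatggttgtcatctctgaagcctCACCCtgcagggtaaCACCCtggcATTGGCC
Hba-a2: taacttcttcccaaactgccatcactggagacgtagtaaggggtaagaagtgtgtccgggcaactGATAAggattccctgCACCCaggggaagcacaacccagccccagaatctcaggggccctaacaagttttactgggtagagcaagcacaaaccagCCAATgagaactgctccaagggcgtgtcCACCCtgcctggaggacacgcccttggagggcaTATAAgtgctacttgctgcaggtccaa
All 6 promoters held CACCC as well as GATAA and a TATA-type match, the last of these starting 27 to 30 bases before the RefSeq start. CCAAT was found in 5 of 6, the exception being Hba-x. Hbb-bt held 3 matches to CACCC and 3 to CCAAT, against 1 each in Hbb-y and Hbb-bs. Among all 32851 promoters of the same table, 52% held CACCC, 33.8% CCAAT, 22.6% GATAA and 6.22% a TATA-type match in the last 50 bases. These matches describe letters only.

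The libraries held 67141166 to 259041468 UMIs. Over the last 500 bases of the transcripts, where 3′ reads fall, 78.1% of the 90-base windows of Hba-a1 and 74.2% of those of Hba-a2 occurred in the other, and likewise 61.3% for Hbb-bs and 61.1% for Hbb-bt. Splits within these pairs are therefore uncertain, whereas Hba-x, Hbb-y and Hbb-bh1 shared no window with another gene. Reads from shared windows may also go uncounted. Shares that set adult against embryonic genes, or alpha-type against beta-type genes, carry this limit too, and its size was not tested. Globin-high barcodes numbered 52 in E8.5 embryos, 187 and 209 in E10.5 embryos, 329 and 464 in E12.5 hearts, 469 and 476 in E14.5 hearts, 797 and 787 in E16.5 hearts, and 278 in P3 hearts. At E8.5 and E10.5 the 20% threshold runs through the red cells rather than between cell types: 29 E8.5 barcodes lay between 20 and 25% and 15 between 15 and 20%, with embryonic shares of beta-type UMIs of 98.9 and 98.5%. From E12.5 on, at most 6 barcodes per library lay just inside and at most 9 just outside. The threshold set the globin share itself, whose median per barcode was 24.3 to 29.98% at E8.5 and E10.5 and 80.1 to 96.4% later. Erythroid markers (7 of the 8 listed were in the matrices, Ahsp was not matched) summed to 2754 to 9422 non-globin CPM (UMIs per 1000000 non-globin UMIs) in globin-high barcodes and to 2.25 to 17.1 in the others. In the other barcodes cardiomyocyte markers summed to 319.3 non-globin CPM in E8.5 embryos and 142.8 and 144.7 in E10.5 embryos. They summed there to 9900 and 9812 in E12.5 hearts, 11477 and 11415 in E14.5 hearts, 14523 and 15378 in E16.5 hearts and 17055 in P3 hearts. Cardiomyocyte markers in globin-high barcodes summed to 12.8 to 14.2 non-globin CPM in the E8.5 and E10.5 embryos, 2431 and 2729 in E12.5 hearts, 5748 and 7126 in E14.5 hearts, 8709 and 9571 in E16.5 hearts and 6444 in P3 hearts. Fibroblast or mesenchyme markers there summed to 1.60 in E8.5 embryos, 70.4 and 17.7 in E10.5 embryos, 156.2 and 156.0 in E12.5 hearts, 337.1 and 803.8 in E14.5 hearts, 2109 and 1099 in E16.5 hearts and 2249 in P3 hearts, beside 1455, 1302 and 2608 in the other barcodes of the last 3. Endothelial markers summed to 46.9 to 182.9 in the embryonic libraries and to 1931 in P3, beside 429.3 in the other barcodes of P3. Also higher than in the other barcodes of P3 were macrophage (516.8 beside 277.5), megakaryocyte (242.4 beside 94.7), epicardial (73.8 beside 55.45) and neural markers (77.0 beside 39.4). Cardiomyocyte and fibroblast or mesenchyme markers were lower there. The part of these markers in the results was not tested. Of the 36 pairs of embryonic libraries, 8 shared 1 globin-high barcode and the rest none, and 2 globin-high barcodes were shared with P3. Leaving the shared barcodes out, an alternative added after the data were seen, changed the direction or call of none of 30 results.

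**Figure D1:**
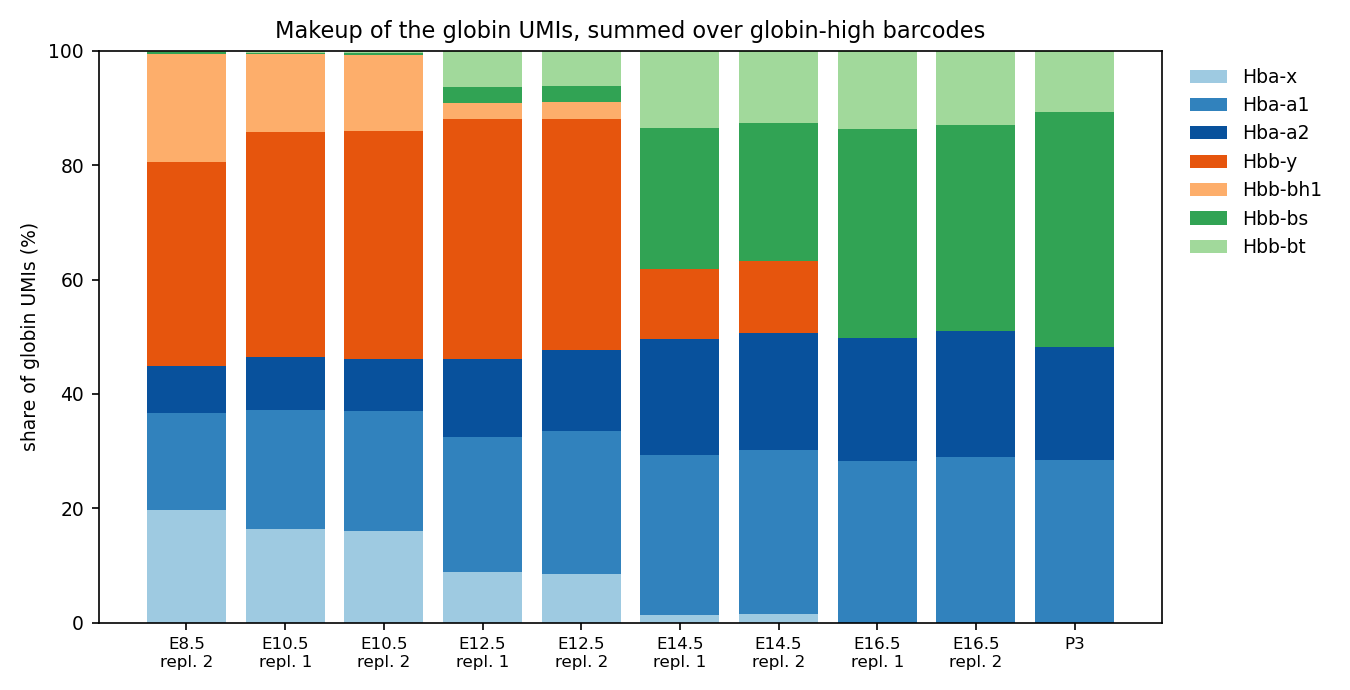
Share of each globin gene (percent of globin UMIs, stacked bars, linear axis) in the summed globin-high barcodes of each library. The orange embryonic beta-type segments shrink from E12.5 to E14.5 and are not visible at E16.5 and P3, while the replicates of a stage look alike.

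The beta-type UMIs were almost wholly embryonic at E8.5 and E10.5, mostly embryonic at E12.5 and almost wholly adult at E16.5. Hbb-y, the main embryonic beta-type chain, held 35.7% of globin UMIs in E8.5 embryos, 39.2 and 39.8% in E10.5 embryos, 41.9 and 40.4% in E12.5 hearts, 12.2 and 12.54% in E14.5 hearts, and 0.0119 and 0.0170% in E16.5 hearts. At P3 the 278 globin-high barcodes held 1 Hbb-y UMI. The Hbb-y share was thus higher at E12.5 than at E8.5 and near 0 at E16.5. Hbb-bh1, the early embryonic chain, held 18.8% in E8.5 embryos, 13.7 and 13.3% in E10.5 embryos, 2.91 and 2.89% in E12.5 hearts, 0.0762 and 0.0673% in E14.5 hearts, and 0.00128 and 0.000684% in E16.5 hearts. No Hbb-bh1 UMI was found at P3 in the globin-high barcodes. Hbb-bh1 was thus lower at each stage than at the one before, whereas Hbb-y was first lower at E14.5.

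Hbb-y and Hbb-bh1 together made up 98.8% of the beta-type UMIs at E8.5. The replicates gave 98.97 and 98.7% in E10.5 embryos, 83.1 and 82.7% in E12.5 hearts, 24.4 and 25.6% in E14.5 hearts and 0.0263 and 0.0361% in E16.5 hearts. The stages did not overlap, and E16.5 lay 98.8 percentage points below E10.5. The 8 libraries can be dealt to 4 stages in 105 ways, so the smallest p an exact permutation test allows is 0.00952, and this share reached it (adjusted p = 0.0124 over 13 stage tests). The test asks whether the 4 stages differ at all, so its p belongs to no single pair of stages. Within the embryonic pair, Hbb-bh1 took 34.5% in E8.5 embryos, 25.9 and 25.1% in E10.5 embryos, 6.50 and 6.68% in E12.5 hearts and 0.619 and 0.533% in E14.5 hearts. At E16.5 it took 9.69 and 3.86%, values that rest on 131 and 54 Hbb-bh1 UMIs. These came from few barcodes, since 790 of 797 and 781 of 787 held no Hbb-bh1 UMI. The stages differed (exact permutation test, p = 0.0286, adjusted p = 0.0338), and E16.5 minus E10.5 was -18.7 percentage points. With barcodes under 2000 UMIs left out the E16.5 share rose above that of E10.5 by 13.8 percentage points, and the stages did not differ (exact permutation test, adjusted p = 0.295). Without either E12.5 library or either E14.5 library the stage test did not pass.

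Both adult beta-type genes were already present at low level in the embryonic stages. Hbb-bs held 0.497% of globin UMIs in E8.5 embryos, 0.235 and 0.264% in E10.5 embryos, 2.79 and 2.85% in E12.5 hearts, 24.7 and 24.0% in E14.5 hearts, 36.5 and 36.0% in E16.5 hearts and 41.1% in P3 hearts. Hbb-bt held 0.156% in E8.5 embryos, 0.316 and 0.452% in E10.5 embryos, 6.29 and 6.17% in E12.5 hearts, 13.4 and 12.7% in E14.5 hearts, 13.7 and 13.04% in E16.5 hearts and 10.7% in P3 hearts. So Hbb-bt exceeded Hbb-bs at E10.5 and E12.5, and Hbb-bs exceeded Hbb-bt at E8.5 and from E14.5 on. As a share of the adult pair, Hbb-bt was 23.9% in E8.5 embryos, 57.4 and 63.2% in E10.5 embryos, 69.2 and 68.4% in E12.5 hearts, 35.2 and 34.6% in E14.5 hearts, 27.3 and 26.6% in E16.5 hearts and 20.6% in P3 hearts. The change over E10.5 to E16.5 was -33.3 percentage points (exact permutation test, p = 0.00952, adjusted p = 0.0124). The E8.5 value rests on 643 Hbb-bt and 2049 Hbb-bs UMIs. The P3 barcodes carry 2 suffixes that the labels do not tie to samples, and the Hbb-bt share was 23.4% under the first and 16.9% under the second.

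On the alpha side both adult genes were abundant at every stage, and Hba-x was the member that went down. Hba-x held 19.7% of globin UMIs in E8.5 embryos, 16.3 and 16.1% in E10.5 embryos, 8.85 and 8.52% in E12.5 hearts, 1.33 and 1.46% in E14.5 hearts, 0.0168 and 0.00432% in E16.5 hearts, and no UMI in P3 hearts. Hba-a1 went from 17.0% in E8.5 embryos to 20.8 and 20.9% in E10.5 embryos, 23.6 and 24.98% in E12.5 hearts, 28.1 and 28.7% in E14.5 hearts, 28.2 and 29.0% in E16.5 hearts and 28.5% in P3 hearts. Hba-a2 went from 8.21% at E8.5 to 9.33 and 9.21%, 13.7 and 14.2%, 20.2 and 20.6%, and 21.6 and 21.9% over the next 4 stages, and was 19.7% at P3. From E14.5 to P3 Hba-a1 stayed within 28.1 to 29.0% and Hba-a2 within 19.7 to 21.9%.

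Hba-x was 43.9% of alpha-type UMIs in E8.5 embryos, and the replicates gave 35.1 and 34.7% in E10.5 embryos, 19.2 and 17.9% in E12.5 hearts, 2.68 and 2.88% in E14.5 hearts and 0.0338 and 0.00848% in E16.5 hearts. The stages differed (exact permutation test, p = 0.00952, adjusted p = 0.0124), and Hba-x fell by 34.9 percentage points from E10.5 to E16.5. At E12.5 the embryonic share was thus 18.5% on the alpha side and 82.9% on the beta side of the same barcodes, and at E8.5 it was 43.9% against 98.8%. The adult pairs of both sides differ in how much 3′ sequence they share, and the part of this in the contrast was not tested. Of the adult alpha-type pair, Hba-a2 took 32.6% in E8.5 embryos, 30.9 and 30.5% in E10.5 embryos, 36.7 and 36.3% in E12.5 hearts, 41.9 and 41.8% in E14.5 hearts, 43.3 and 43.1% in E16.5 hearts and 40.8% in P3 hearts. Here too the stages differed (exact permutation test, p = 0.00952, adjusted p = 0.0124), with a rise of 12.46 percentage points from E10.5 to E16.5. The shared 3′ sequence of the pair is a limit.

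Alpha-type genes together held 44.9% of all globin UMIs in E8.5 embryos, 46.5 and 46.2% in E10.5 embryos, 46.1 and 47.7% in E12.5 hearts, 49.6 and 50.7% in E14.5 hearts, 49.8 and 51.0% in E16.5 hearts and 48.2% in P3 hearts. The alpha and beta sides thus stayed within 44.9 to 51.0% alpha while the members exchanged. The difference between stages did not pass the test (4.04 percentage points from E10.5 to E16.5, exact permutation test, p = 0.0667, adjusted p = 0.0722). It passed with the globin threshold set at 50% (11.4 percentage points) and without E12.5 replicate 1, each of which leaves 7 libraries and 1 stage with a single library. At 50% the E10.5 value rests on replicate 2 alone, with 11 barcodes of 50 to 70% globin and 1 of 70 to 90%.

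**Figure D2:**
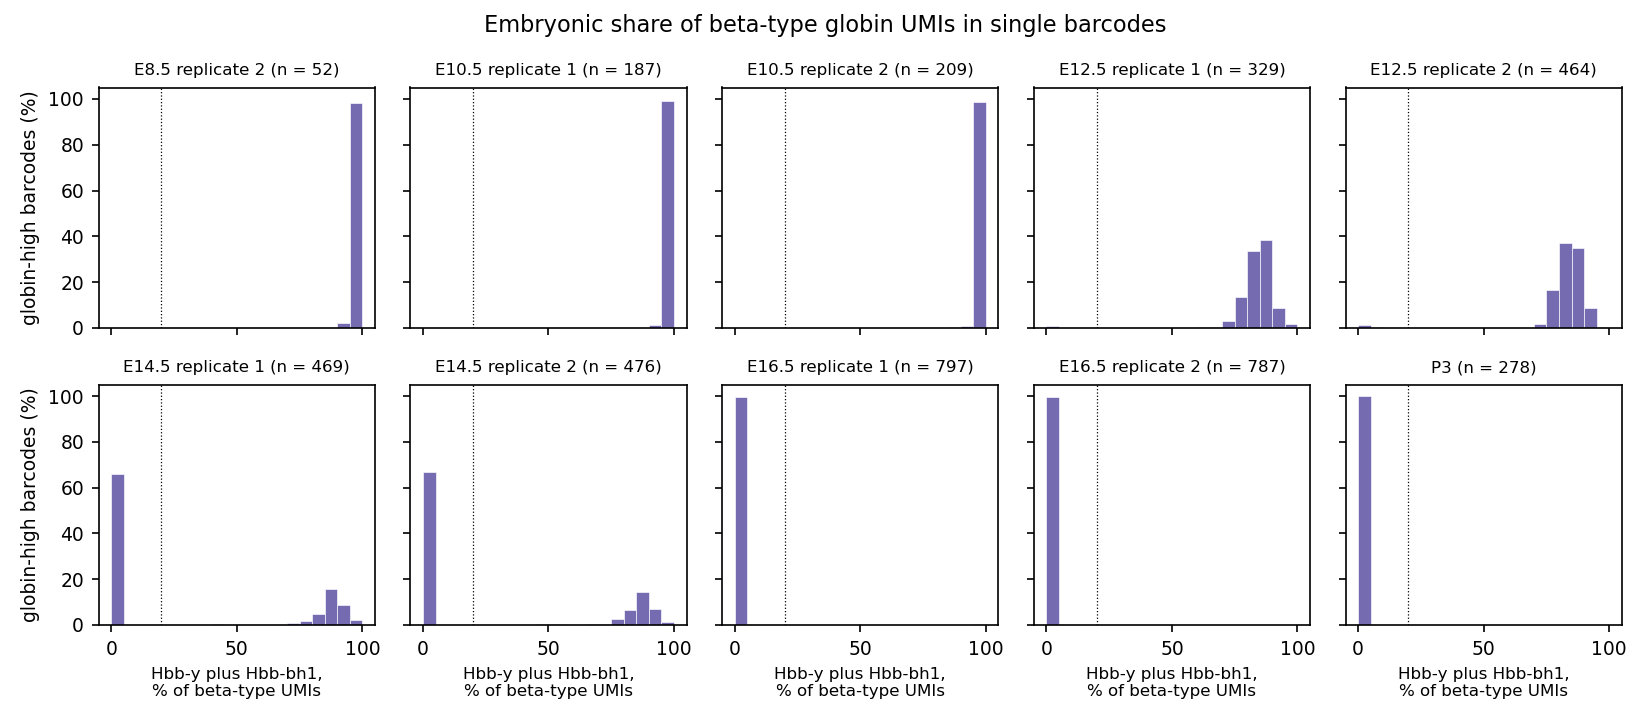
Distribution over single globin-high barcodes of the share of Hbb-y plus Hbb-bh1 among beta-type UMIs (percent, bins of 5), with the percent of the library's globin-high barcodes on the vertical axis. The dotted line marks 20%. E12.5 shows 1 broad peak (medians of 84.9 and 84.2% in its embryonic-type barcodes) and E14.5 shows separate peaks near 0 and at 85 to 90%.

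At E14.5 the globin-high barcodes fell into a group with almost no embryonic beta-type UMIs and a group with mostly embryonic ones. There were 310 and 319 barcodes under 5% embryonic share, with 95th percentiles of 0.124 and 0.153%, none between 5 and 40%, and 1 and 4 between 40 and 70%. The 159 and 157 barcodes above that gap had 5th percentiles of 77.8 and 76.8% and medians of 88.2 and 87.8%. Barcodes are called adult-type under 20% and embryonic-type from 20% here, a line drawn in this gap after it was seen, so it is used for description without a test. Embryonic-type barcodes were all of those at E8.5 and E10.5, and 99.4% (exact binomial 95% interval 97.8 to 99.9%) and 98.7% (97.2 to 99.5%) at E12.5. They were 33.9% (29.6 to 38.4%) and 33.0% (28.8 to 37.4%) at E14.5, and 0.627% (0.204 to 1.46%) and 0.381% (0.0787 to 1.11%) at E16.5. At P3 there were 0 of 278, with an upper bound of 1.32%. These intervals cover counting error only. The replicates of each stage gave close shares.

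The minority barcodes were few. The 2 and 6 adult-type barcodes of E12.5 had 6267 to 43146 UMIs. In 7 of these 8 the Hbb-y plus Hbb-bh1 share was below 1%, and the remaining one, of E12.5 replicate 2, held 956 Hbb-bh1 UMIs beside 31 of Hbb-y and 88 of Hba-x. The 5 and 3 embryonic-type barcodes of E16.5 had only 1016 to 2237 UMIs, against library medians of 15357 and 10285. They held 1165 of the 1221 and 1077 of the 1344 Hbb-y UMIs of the globin-high barcodes at that stage, and 1724 of the 1728 and 293 of the 341 Hba-x UMIs. Primitive and definitive erythroid cells as cell types are not described further here.

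**Figure D3:**
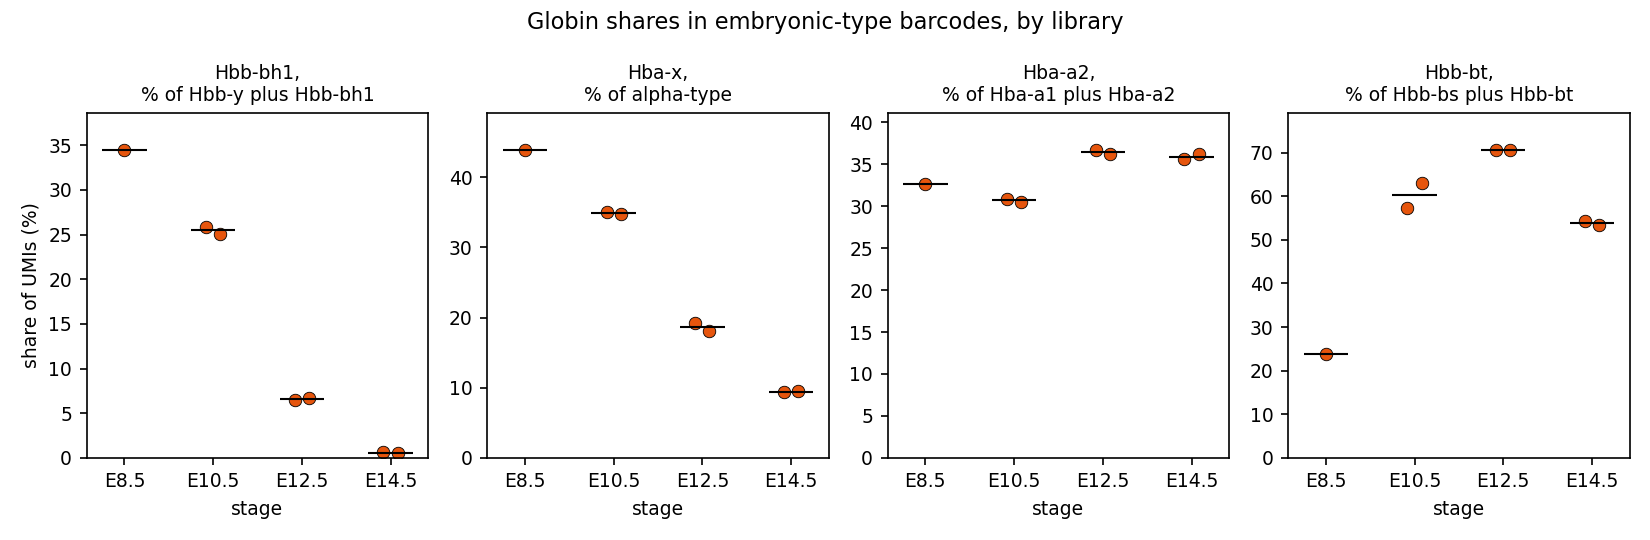
Shares of UMIs (percent, linear axes from 0) in the summed embryonic-type barcodes of each library from E8.5 to E14.5; points are libraries and lines are stage means. Hbb-bh1 and Hba-x are lower at each later stage, whereas Hba-a2 and Hbb-bt are not.

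Within the embryonic-type barcodes the makeup of the globin UMIs also differed between stages. Hbb-bh1 went from 34.5% of the embryonic beta-type pair in E8.5 embryos to 25.9 and 25.1% in E10.5 embryos, 6.50 and 6.65% in E12.5 hearts and 0.613 and 0.493% in E14.5 hearts. Hba-x went from 43.9% of alpha-type UMIs to 35.1 and 34.7%, 19.3 and 18.1%, and 9.37 and 9.55% at the same stages. The embryonic share of beta-type UMIs was 83.7% in both E12.5 libraries and 87.4 and 86.6% at E14.5 against 98.97 and 98.7% at E10.5. The adult beta-type share in these barcodes was thus lower at E14.5 than at E12.5. Hbb-bt took 70.6% of the adult beta-type pair in both libraries at E12.5 and 54.3 and 53.4% at E14.5. In adult-type barcodes it took 34.3 and 33.6% in E14.5 hearts, 27.3 and 26.6% in E16.5 hearts and 20.6% in P3 hearts. The 8 adult-type barcodes of E12.5 gave 35.0 and 38.1%, near the adult-type and not near the embryonic-type value of their own libraries. Hba-x was at most 0.00186% of alpha-type UMIs in adult-type barcodes from E14.5 on.

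**Figure D4:**
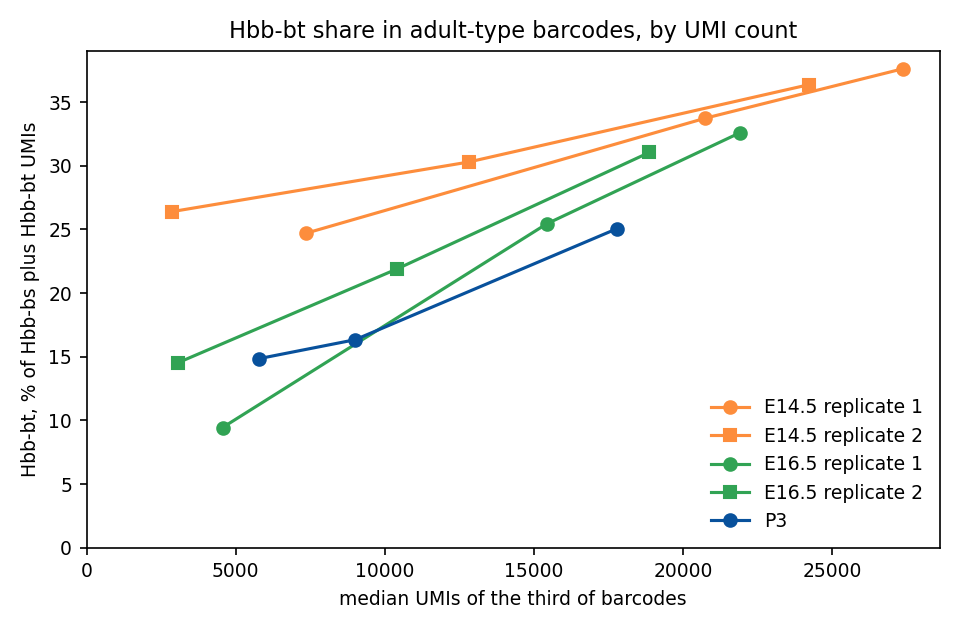
Share of Hbb-bt among Hbb-bs plus Hbb-bt UMIs (percent, vertical axis) against the median UMI count (horizontal axis) for 3 equal bins of adult-type barcodes ordered by UMI count, 1 line per matrix. All 5 lines rise from left to right, from 9.45 to 26.4% in the lowest bin to 25.1 to 37.6% in the highest.

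Among adult-type barcodes Hbb-bt was a larger part of the adult pair where the barcode had more UMIs. When barcodes were split into 3 equal bins by UMI count, the lowest, middle and highest bins gave 24.7, 33.7 and 37.6% in E14.5 replicate 1 and 26.4, 30.3 and 36.4% in replicate 2. The E16.5 replicates gave 9.45, 25.4 and 32.6%, and 14.53, 21.9 and 31.04%. P3 gave 14.9, 16.3 and 25.1%. The order was the same in 5 of 5 matrices, and at E16.5 the lowest bin had 9.45 and 14.53% with 264 and 262 barcodes behind it. The P3 bins pool its barcode suffixes, which differ in Hbb-bt share, and their part in the P3 order was not tested. Red cell enzyme transcripts (summed, non-globin CPM) were 7063, 31670 and 22963 in the bins of E16.5 replicate 1 and 11288, 26189 and 21695 in replicate 2, so the lowest bin was also the lowest in these. In E14.5 replicate 1 they were 26540, 45517 and 26776, with the lowest bin close to the highest, and the lowest bin was not the lowest in E14.5 replicate 2 (52503, 46681 and 35577) or P3 (27257, 39397 and 11744). In the embryonic-type barcodes of E14.5 the same bins gave 58.9, 49.7 and 56.3%, and 52.6, 48.9 and 55.6%, with no such order. Hba-a2, the corresponding member of the adult alpha-type pair, stayed within 42.8 to 44.2% across all bins of adult-type barcodes at E14.5 and E16.5. These bins were formed after the data were seen and carry no test.

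The level of each gene relative to the other genes of the globin-high barcodes was fitted between consecutive stages with edgeR's quasi-likelihood test on the library sums, adjusted by Benjamini-Hochberg over 9186 genes. The globin share of UMIs chose these barcodes, so in all 3 comparisons the levels of the 7 members are a description, and no test is read from them. From E10.5 to E12.5 all 7 had a positive log2 fold change, a count by sign beside a median of 0.003 over all genes. Of all genes 27.8% were called higher and 23.8% lower, a count by threshold that is not set against it. The largest were those of Hbb-bt (log2 fold change 7.13, SE 0.16) and Hbb-bs (6.61, SE 0.11). Hba-a2 (3.71), Hba-a1 (3.33), Hbb-y (3.17) and Hba-x (2.22) followed. Hbb-bh1 had the smallest (0.90, SE 0.13). With the 50% threshold, where E10.5 is 1 library with few barcodes, the Hbb-bh1 value was -0.20. The globin share itself stood at 30.3 and 31.7% at E10.5 against 79.1 and 77.6% at E12.5.

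From E12.5 to E14.5 the members split in sign, beside a median log2 fold change of 0.025 over all genes. By threshold 13.2% of all genes were called higher and 16.1% lower. Hbb-bs (log2 fold change 3.91, SE 0.10), Hbb-bt (1.87, SE 0.13), Hba-a2 (1.35, SE 0.08) and Hba-a1 (1.03, SE 0.08) were higher at E14.5. Hbb-bh1 (-4.54, SE 0.15), Hba-x (-1.84, SE 0.31) and Hbb-y (-0.93, SE 0.10) were lower. With the threshold at 50% the value of Hbb-y was 0.11 and that of Hba-x -0.77. From E14.5 to E16.5, when 3.11% of genes were called higher and 3.83% lower, the embryonic members had -9.47 (Hbb-y, SE 0.14), -6.71 (Hba-x, SE 0.39) and -5.86 (Hbb-bh1, SE 0.18). The Hba-x value was -8.12 without E16.5 replicate 1 and -6.01 without E16.5 replicate 2, and with a floor of 2000 UMIs it was -11.10 and that of Hbb-y -11.80. Hbb-bs had 0.86 (SE 0.09), Hba-a2 0.38, Hbb-bt 0.32 and Hba-a1 0.30. With the globin threshold at 10% the last comparison gave -0.03 for Hba-a1, -0.0039 for Hbb-bt and 0.05 for Hba-a2, so that the sign of Hba-a1 and Hbb-bt turned.

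In the embryonic-type barcodes alone, the Hbb-y level per non-globin UMI was higher at E14.5 than at E12.5 (a description with no test). This level was 1608000 and 1409000 non-globin CPM in the E12.5 libraries and 2612000 and 2123000 at E14.5, values above the scale itself because the globin UMIs are counted outside the denominator. Per barcode Hbb-y was lower at E14.5. The Hbb-y UMIs were 3210690 in 327 and 3730853 in 458 barcodes at E12.5, and 889671 in 159 and 709603 in 157 at E14.5. Median UMIs per barcode were 30514 and 27072 at E12.5 and 15208 and 10658 at E14.5. In non-globin CPM the other members were as follows. Hba-a1 went from 900600 and 860800 to 1765000 and 1494000, and Hbb-bs from 98790 and 86070 to 173300 and 154100. Hbb-bh1 went down from 111800 and 100400 to 16100 and 10510. Hba-x went from 339800 and 297300 to 283300 and 247400, and Hbb-bt from 237000 and 207100 to 206200 and 176900. No library of one stage overlapped those of the other for any of the 7 genes, which was also the case, in one direction or the other, for 32.4% (higher) and 33.4% (lower) of 5776 genes measured.

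Other genes of red cell function were read from lists, chosen like the members with earlier results of these data known. From E10.5 to E12.5, 9 of the 10 tested heme synthesis genes rose and 1 fell, with Urod (log2 fold change 2.56), Fech, which inserts the iron (1.78), and Slc25a38, a mitochondrial glycine carrier (1.29), among those that rose. Membrane and skeleton genes rose in 15 of 17 (14 under DESeq2), among them the blood group genes Rhd (3.35) and Kel (2.92). The water channel gene Aqp1 is 1 of the 15 and had no UMI in E10.5 embryos and 4.45 and 2.25 non-globin CPM in E12.5 hearts, so no fold is given for it. Genes of the enzyme and redox list rose in 8 of 9. Among them were Cat, the catalase (3.01), Bpgm, which makes 2,3-bisphosphoglycerate (2.71), and Car2, a carbonic anhydrase (2.65). Bnip3l, which is on this list but is not an enzyme gene, rose too (2.82). The erythroid pyruvate kinase gene Pklr fell by 2.32 on the log2 scale. Iron genes rose in 3 and fell in 2 of 8, regulators rose in 9 and fell in 7 of 22, and growth signal genes rose in 1 and fell in 1 of 7. Set against 27.8% higher and 23.8% lower over all genes, nothing particular to these 3 lists is read from their counts, and DESeq2 called 7 regulators higher and 3 lower. The edgeR calls among the regulators included Klf2, a relative of Klf1 (4.53), Lin28b, a fetal RNA-binding protein gene (-2.83), Sox6, a repressor of embryonic globin genes (2.47), and Nfe2 (2.20). Those among the iron genes included the exporter gene Slc40a1 (2.51), the ferritin chains Fth1 (1.57) and Ftl1 (1.41), and Tfrc, the transferrin receptor gene (-1.12). Hbq1a, a theta-type globin, rose by 5.51 and Hbq1b by 1.09. The median over all genes tested was 0.00. Cell cycle genes fell in 6 of 12 and rose in 1, with Mcm5 at -1.83 and Pcna at -1.49. Under DESeq2 4 fell and 0 rose, and with the non-globin UMIs as library size 8 fell and 0 rose.

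From E12.5 to E14.5 the heme list turned: 8 of 10 fell, including Cpox (-2.94), Uros (-2.93) and Slc25a38 (-2.90), while Alas2, the erythroid enzyme of the first step, rose by 0.95. Membrane and skeleton genes fell in 13 of 17 and rose in 3, with Ermap at -3.85, Rhag at -3.51 and Add2 at -3.30. Over all genes 13.2% rose and 16.1% fell. Of the 22 tested globin gene regulators 7 fell and 5 rose, which under DESeq2 became 6 and 2. Ikzf1 (-3.97), Klf1, an erythroid activator of the beta-globin genes (-3.24), Gata1 (-2.91) and Nfe2 (-2.67) had the largest changes. Growth signal genes fell in 3 of 7, among them the erythropoietin receptor gene Epor (-4.73), and enzyme genes fell in 4 and rose in 2 of 9. Cell cycle genes fell in 5 and rose in 1 of 12, against 3 and 1 under DESeq2 and 3 and 2 with the non-globin UMIs as library size. Iron genes fell in 5 of 8, led by the iron exporter gene Slc40a1 (-2.99), whereas Ftl1, a ferritin chain, rose by 0.69. From E14.5 to E16.5 calls were fewer than from E12.5 to E14.5, over all genes (3.11% higher and 3.83% lower) as well as in the lists of red cell function. Iron genes fell in 3 and rose in 0 of 8, against 2 and 0 under DESeq2. Heme genes rose in 1 (Slc25a37, an iron importer of mitochondria, 0.72) and fell in 3 of 10, membrane genes fell in 5 of 17, regulators fell in 6 and rose in 1 of 22 (3 and 1 under DESeq2, which also called 3 membrane genes lower), and enzyme genes fell in 3 and rose in 1 of 9. Tal1 fell by 3.93, Klf2 rose by 2.28, and the ferritin chains Fth1 and Ftl1 fell by 1.89 and 0.96. In the same 3 comparisons the cardiomyocyte markers rose in 8, 7 and 4 of 8, and 1 fell in the last. From E10.5 to E12.5 endothelial markers rose in 7 and fell in 1 of 8, macrophage markers rose in 5 of 5, fibroblast or mesenchyme markers in 5 of 6 and epicardial markers in 2 of 3, while neural markers fell in 5 of 6. Fibroblast or mesenchyme markers rose in 5 and 3 of 6 in the later comparisons. DESeq2 called fewer of these: from E10.5 to E12.5 2 macrophage and 2 fibroblast or mesenchyme markers higher and 2 neural markers lower, and later 1 and 0 fibroblast or mesenchyme markers higher. The part of these other cell types in the list counts, Aqp1 included, was not tested. Mb, the myoglobin gene of muscle, had a log2 fold change of 6.76 from E10.5 to E12.5. Pklr from E10.5 to E12.5, Alas2 and Ftl1 from E12.5 to E14.5, and the genes described by class next were picked after their values were seen.

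When the non-globin UMIs were taken as library size in place of TMM scaling, the median of all genes from E12.5 to E14.5 moved by 0.27 on the log2 scale, and 65.4% of the calls were then higher against 45.2% under TMM. The heme counts stayed at 2 higher and 8 lower and those of the membrane list came to 4 and 13, while regulators came to 6 and 6 and enzymes to 3 and 3 (against 2 and 4). The medians of all genes in the other comparisons moved by at most 0.10.

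Taken by class, the embryonic-type barcodes had lower heme gene levels at E14.5 than at E12.5. All 10 heme genes measured were lower in both E14.5 libraries than in both E12.5 libraries (background 33.4% lower, no test), with a median log2 ratio of -2.71 against 0.02 over all genes. Slc25a37 went from 1326 and 1324 non-globin CPM to 103 and 41.9, and Urod from 911 and 682 to 88.1 and 74.8. Alas2 changed less, from 2663 and 2285 to 1758 and 1672. Membrane genes were lower in 15 of 16 and higher in 1, and regulators were higher in 7 and lower in 7 of 17. All 8 enzyme genes and all 7 erythroid markers were lower too, while Ftl1 was higher, from 29270 and 26920 to 65290 and 60050. Thus these barcodes held more Hbb-y and fewer heme synthesis transcripts per non-globin UMI at the later stage, though fewer Hbb-y UMIs per barcode. Median genes detected per barcode were 1214 and 1115 at E12.5 and 335 and 287 at E14.5. The part of this lower RNA content was not tested. All 8 cardiomyocyte markers were higher at E14.5 in the same barcodes (median log2 ratio 1.76), and their part in these differences was not tested.

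At E14.5 the adult-type barcodes had more heme transcripts than the embryonic-type barcodes of the same libraries. All 8 heme genes measured were higher in both libraries (background 35.4% higher and 18.4% lower of 3293 genes, no test), with a median log2 ratio of 2.14 against 0.21 over all genes. Fech was at 2811 and 3762 non-globin CPM against 288 and 308, and Alas2 at 7672 and 9610 against 1758 and 1672. All 8 enzyme genes were higher as well, among them Gpx1 at 12390 and 16020 against 2219 and 1867. Membrane genes were mixed, with 7 higher and 3 lower of 12, and so were regulators, with 4 higher and 2 lower of 13. All 3 iron genes measured were lower. Fth1 stood at 19570 and 23090 against 57710 and 52870, and Tal1 had 4 and 6 UMIs against 73 and 115. Hba-a2 stood at 1779000 and 2253000 against 976700 and 848400 and Hba-a1 at 2255000 and 2872000 against 1765000 and 1494000. Hba-x had 48 and 25 UMIs in the adult-type and 96491 and 82691 in the embryonic-type barcodes. Cardiomyocyte markers were higher in 1 of 8 and lower in none, and fibroblast or mesenchyme markers were higher in 5 of 6 measured (median log2 ratio 2.29), whose part was not tested.

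**Figure D5:**
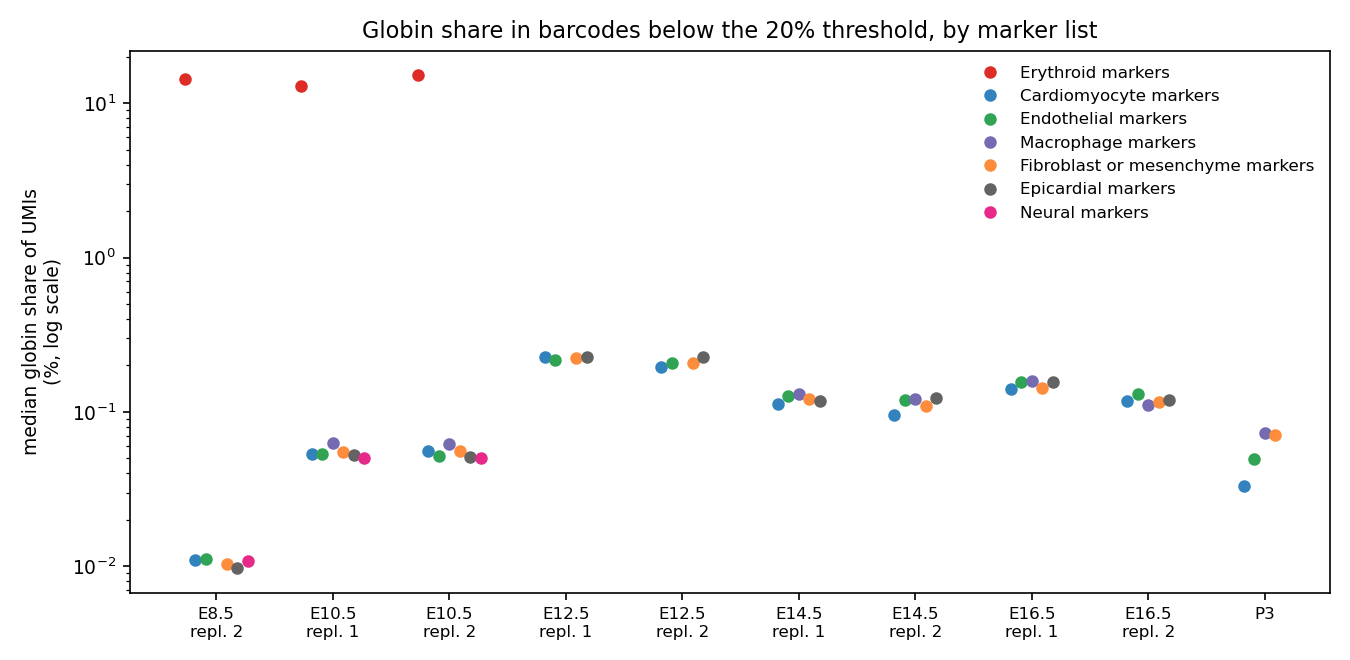
Median globin share of UMIs (percent, log axis) in barcodes under the 20% threshold, for barcodes assigned to a marker list (at least 20 per library; colours). Lists other than the erythroid one run from 0.00971 to 0.0110% at E8.5 and from 0.196 to 0.228% at E12.5, and more widely, from 0.0333 to 0.0724%, at P3.

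In the other barcodes globin genes held 0.118% of all UMIs in E8.5 embryos, 0.158 and 0.127% in E10.5 embryos, 0.237 and 0.241% in E12.5 hearts, 0.123 and 0.121% in E14.5 hearts, 0.192 and 0.210% in E16.5 hearts and 0.115% in P3 hearts. Because this share was used to choose the barcodes, no test is read from it. Red cells just under the threshold weigh heavily on the early sums. The 34 barcodes with erythroid markers at E8.5 had a median of 4464 globin UMIs each, and the sum over the other barcodes was 167810. In the E10.5 libraries 72 and 31 such barcodes had medians of 2018 and 4012, and the sums were 365534 and 289158. The median share per barcode was 0.0107% at E8.5, 0.0546 and 0.0547% for E10.5, 0.225 and 0.202% for E12.5, 0.117 and 0.102% for E14.5, 0.143 and 0.118% for E16.5 and 0.0402% for P3. By the median E10.5 thus lay below E14.5, whereas by the sum it lay above, and E12.5 was highest by both. The median share per barcode was also taken by the cell type markers a barcode carried. In E12.5 replicate 1 it was 0.228% for cardiomyocyte, 0.218% for endothelial, 0.222% for fibroblast or mesenchyme and 0.226% for epicardial markers, at 17045 to 20074 median UMIs. The spread was wider in E14.5 replicate 2, from 0.0956% for cardiomyocyte to 0.123% for epicardial markers, and in E10.5 replicate 1, from 0.0505% for neural to 0.0625% for macrophage markers. P3 had a still wider one, from 0.0333% for cardiomyocyte to 0.0724% for macrophage markers, at 15025 and 10732 median UMIs. These P3 medians rest on 5 and 7 globin UMIs per barcode. The 2 barcode suffixes of P3 also differed, with Hbb-bs at 0.0338% of the UMIs of other barcodes under the first and 0.0936% under the second. No globin expression by the cell types of these lists is read from these values, and the source of the UMIs was not tested. The part of free RNA and that of the suffixes in the P3 spread were not tested. Barcodes under the threshold that carried erythroid markers had 14.3% in the E8.5 embryos and 12.9 and 15.2% in the E10.5 ones.

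At E8.5 and E10.5 the globin UMIs of the other barcodes include those of the red cells just under the threshold. The shares among the globin UMIs of the other barcodes also differed between stages. Their embryonic share of beta-type UMIs was 98.3% in E8.5 embryos, 99.1 and 98.8% in E10.5 embryos, 85.8 and 85.8% in E12.5 hearts, 26.5 and 28.6% in E14.5 hearts, 0.789 and 0.0669% in E16.5 hearts and 0.0221% in P3 hearts. The E16.5 values rest on 835 Hbb-y UMIs in replicate 1 and 48 in replicate 2, and in barcodes under 1% globin the values were 0.0820 and 0.108%. Hba-x was 44.4% of alpha-type UMIs in E8.5 embryos, 34.3 and 31.6% in E10.5 embryos, 15.5 and 17.2% in E12.5 hearts, 3.16 and 3.97% in E14.5 hearts and 0.367 and 0.0942% in E16.5 hearts. Hbb-bt was 72.6 and 67.3% of the adult beta-type pair in E10.5 embryos, 66.8 and 66.9% in E12.5 hearts, 30.1 and 30.1% in E14.5 hearts and 21.3 and 20.7% in E16.5 hearts. These shares differed between stages (each exact permutation test p = 0.00952, adjusted p = 0.0124). The stage test of the alpha-type share of all globin UMIs passed with the same values here. Its means were 46.3% in E10.5 embryos, 37.8% in E12.5 hearts, 39.9% in E14.5 hearts and 42.2% in E16.5 hearts. E16.5 minus E10.5 was -4.15 percentage points, with E12.5 the lowest. In globin-high barcodes that difference was 4.04 and the stage test did not pass (adjusted p = 0.0722 by exact permutation). Without E12.5 replicate 1 the stage test of other barcodes did not pass, and in those under 1% globin the difference was 0.952. The E10.5 values in those under 1% globin were 37.0 and 37.7%, against 46.6 and 46.0% in all of the other barcodes. Hbb-bh1 within the embryonic pair did not pass in the other barcodes (exact permutation test, adjusted p = 0.0857).

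Set against the globin-high barcodes of the same library, the embryonic share was higher in 9 of 10 matrices by 1.13 percentage points on average (SD 1.42; exact sign-flip permutation test, p = 0.0332, adjusted p = 0.0996 over 6 shares). The alpha-type share was lower in 8 of 10, at -5.60 percentage points on average (SD 5.02; exact permutation p = 0.0117, adjusted p = 0.0703). In the hearts before birth it was 36.9 and 38.7% in E12.5 hearts, 38.9 and 40.9% in E14.5 hearts and 41.0 and 43.3% in E16.5 hearts, below every globin-high value. The other barcodes of E8.5 and E10.5 include the red cells just under the threshold. With only barcodes under 1% globin the alpha-type difference was -10.2 percentage points and passed (sign-flip permutation test, adjusted p = 0.0117). The Hbb-bt, Hba-x, Hba-a2 and Hbb-bh1 shares differed by -1.23, -0.58, 0.21 and -0.85 percentage points with SDs of 6.58, 1.60, 1.45 and 3.70, and none passed (adjusted p = 0.647 each). With the 50% threshold, which drops E8.5 and E10.5 replicate 1, the Hbb-bt difference was -3.58 and passed (sign-flip permutation test, adjusted p = 0.0469). In other barcodes under 1% globin the Hba-x difference turned to 0.44 and the Hba-a2 difference was 1.80 and passed (adjusted p = 0.0234).

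Barcodes with 1 to 99 UMIs, which lie below any cell threshold, held 0.545% globin in the E8.5 library, 0.768 and 0.971% in those of E10.5 and 5.27 to 7.10% in the 6 embryonic heart libraries. Their alpha-type share was 40.2 and 42.1% in E12.5 hearts, 43.2 and 44.3% in E14.5 hearts and 41.0 and 43.3% in E16.5 hearts, as in the other barcodes lower than in globin-high ones. Their embryonic share of beta-type UMIs was 44.8% in E14.5 replicate 1 and 23.7% in replicate 2, and 41.7 and 27.6% once barcodes with at least 1000 UMIs in another library were left out. At the barcodes that were globin-high in another library, the median was 25 to 67 UMIs among E12.5 replicates 1 and 2 and E14.5 replicate 1, among E14.5 replicate 2 and the E16.5 replicates, and between the E10.5 replicates, and at most 8 for all other pairs. At E16.5 the Hbb-y share of low-count globin UMIs was 0.594 and 0.930%, and 0.0482 and 0.0798% without those barcodes.

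The genes with the pattern most like Hbb-y in globin-high barcodes were Mllt3 (Pearson r = 0.96), Rps2 (0.95), 1110008P14Rik (0.95), Raly (0.93) and Rpsa (0.92), on log2 non-globin CPM over 10 matrices and 1793 genes ranked. Among the genes most like Hbb-bs were Idh2 (0.997), Dstn (0.997), Fhl2 (0.996) and Ghitm (0.995). Idh2, a mitochondrial isocitrate dehydrogenase, went from 15.2 in E8.5 embryos to 128 and 135 in E12.5 hearts, 320 and 390 in E14.5 hearts and 524 and 502 in E16.5 hearts. Fhl2, a gene of heart muscle, went from 0 in E8.5 embryos to 137.9 and 128.2 in E14.5 hearts and 236.4 and 258.4 in E16.5 hearts, as the cardiomyocyte markers did. The matrices share stage, tissue and depth, so these correlations are a description without a test.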

How the data were processed

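Single-cell RNA libraries (10x 3′ droplets) of mouse embryos and hearts were used as the raw UMI count matrices that the authors deposited, made with Cell Ranger against mm10. The file headers name Cell Ranger 3.1.0 (3.0.0 for P3), whereas the submitters' processing notes name 2.1.1. The labels and the study's methods also differ on the chemistry version and the dissociation enzyme. The embryonic matrices were unfiltered (737280 barcodes), and the P3 matrix held 10964 filtered barcodes. The E16.5 replicate 1 matrix joins 2 sample records. No doublet removal was applied.

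UMIs of the 7 genes were summed per library over globin-high barcodes (at least 1000 UMIs, at least 20% globin) and over other barcodes (at least 2000 UMIs). Members, thresholds and gene lists were chosen with earlier results of these data known. Shares were compared across E10.5 to E16.5 with an exact permutation test (two-sided, 13 tests) and between populations of a matrix with an exact sign-flip permutation test (two-sided, 6 tests), adjusted by Benjamini-Hochberg. The stage statistic was the between-stage sum of squares, so its p covers all the stages together. Percentage points given beside a stage test are E16.5 minus E10.5. One of the 13, the globin share of the other barcodes, was kept in the adjustment only. Levels were tested on summed counts with edgeR 4.0.16 (TMM, quasi-likelihood, threshold 0.05) in 1 fit of 8 libraries. A simulation with few changed genes was run for E16.5 against E14.5 only. It does not cover the earlier comparisons, in which far more genes were called. DESeq2 1.42.0 was an alternative. Named genes were the members, at most 4 called genes of largest change per list and comparison, and the 5 genes most like Hbb-y and Hbb-bs among those with a mean of at least 50 UMIs per 1000000 non-globin UMIs. Some genes that this rule names are not reported here. Barcodes with other cell type markers needed at least 3 detected genes of a list and a lead of 2 over the next. The alternatives were thresholds of 10 and 50%, a 2000 UMI floor, other barcodes with at least 5000 UMIs or under 1% globin, other scalings, no low-count filter, a replicate block and leaving out each library. Intervals are exact binomial (95%). Python 3.11.15, numpy 2.4.6, scipy 1.17.1, pandas 2.3.3, R 4.3.3 and limma 3.58.1 were used.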

Additional observations from a re-analysis of the deposited data

How the results depend on the processing

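Under the alternatives other than leaving out a library, the values that answer a comparison, each counted once per alternative, kept their direction and side of the threshold (counts within 1.5 times) 76 times, lost the threshold 12 times, newly passed 9 times, moved 6 times and changed sign 3 times. These counts include the globin share of the other barcodes, from which no test is read. The members' fold changes, also given as a description, changed sign 4 times. The globin threshold at 50% loses E8.5 and E10.5 replicate 1, and E10.5 then rests on the few barcodes of its replicate 2 past 50%. The stage test of the Hbb-bh1 share of the embryonic pair then did not pass (-19.8 percentage points), and that of the alpha-type share did (11.4). The differences between other and globin-high barcodes of the matrices left were 1.72 for the embryonic share, -3.58 for Hbb-bt and -6.57 for the alpha-type share, each of which passed. The edgeR counts of called genes were 837, 1339 and 364 for the 3 consecutive comparisons, with 7469 genes tested, and the log2 fold changes of Hbb-bh1 (E12.5 against E10.5, -0.20) and Hbb-y (E14.5 against E12.5, 0.11) changed sign. With a threshold of 10% those of Hba-a1 (-0.028) and Hbb-bt (-0.0039) from E14.5 to E16.5 changed sign. With a floor of 2000 UMIs the Hbb-bh1 share was 13.8 and turned. In other barcodes under 1% globin the Hbb-bh1 share was -18.7 and the alpha-type share 0.952, which turned, and against globin-high barcodes Hba-x was 0.441, which turned, Hba-a2 1.80 and the alpha-type share -10.2. Without E8.5 and P3 the embryonic share differed by 1.49 and the alpha-type share by -6.91, both of which passed. DESeq2 called 3090, 1684 and 410 genes against 4739, 2691 and 638 by edgeR. The cause of these changes was not tested, except that fewer genes and libraries entered at 50%.

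The labels give replicate numbers that are not tied to animals or litters. With a replicate block the permutation test allows no p below 0.0417, and no stage test passed after adjustment. The values stayed at -98.8, -18.7, -33.3, -34.9 and 12.46 in globin-high barcodes and at -98.5, -49.0, -32.7, 14.6 and -4.15 in the others, with adjusted p of 0.0542 or, for -18.7, 0.0985. The globin share of the other barcodes, a description, stayed at 0.0590. Counts of genes called in edgeR with the block were 4549, 2533 and 577.

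Leaving out 1 library each gave -21.6 to -15.8 for the Hbb-bh1 share and 3.45 to 4.63 for the alpha-type share in globin-high barcodes, and -23.1 to -15.8 and -5.31 to -2.98 in the others. The Hbb-bh1 share of other barcodes passed without either E16.5 library, and their alpha-type share did not pass without E12.5 replicate 1 (adjusted p = 0.0722). The counts of genes called ranged from 3641 to 4993, 1763 to 2681 and 381 to 662, with the lowest of the second without E14.5 replicate 1 and those of the third, 381 and 406, without E16.5 replicate 1 and replicate 2. The embryonic values at E16.5 and P3 rest on few UMIs.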
